A study of Mus musculus with 4 samples.

Results

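The 10 genes described here encode the NF-kB subunits (Nfkb1, Nfkb2, Rel, Rela and Relb) and proteins grouped here as inhibitors (Nfkbia, Nfkbib, Nfkbie, Nfkbiz and Tnfaip3). Of the latter, the Nfkbiz product is not only an inhibitor, as it is required for part of the secondary response genes. The 10 genes were taken by symbol from the 46078 gene rows of a count table. Each symbol matched 1 row, and all 10 were among the 14995 genes tested. The data are poly(A) RNA sequencing counts of 4 mouse libraries made from sorted dendritic cells (DCs). The Il33flx group had 2 libraries from mice of genotype CD11c-cre-Il33flx/flx, whose CD11c-expressing cells can lose the cytokine gene Il33. The Ctrl group had 2 libraries from mice that carried CD11c-cre alone, so both groups carried the Cre transgene. The CD11c promoter is active in DCs and in some other myeloid cells. All mice of both groups had borne EL4-Flt3 tumour cells, a derivative of the T lymphoma line EL4, for 10 days. The sort took CD45+, CD11b+, MHCII+, CD103+ and CD64- cells of spleen and mesenteric lymph node. The labels give no ages, and they do not say whether 2 libraries of 1 genotype stand for 2 animals, so every p-value below measures only how these libraries vary, and some of that variation may be technical.

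NF-kB transcription factors are dimers of these subunits. In resting cells IkB proteins such as those of Nfkbia, Nfkbib and Nfkbie keep the dimers in the cytoplasm, and the IKK kinases mark the IkB proteins for destruction when a receptor for an IL-1 family cytokine, a TNF family cytokine or a microbial product is engaged. IL-33 is an IL-1 family cytokine whose receptor signals by this route. A second, slower route through the kinase NIK releases dimers of RelB with the processed Nfkb2 product and is known for its part in DC development and maturation. NF-kB switches on the genes of several of its own inhibitors, which limits the response in time.

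Libraries held 67707682 to 81217828 gene counts. All 10 listed gate and DC genes were read in every library. CD64 (Fcgr1), which the sort excluded, was the lowest of these at 3.66 CPM or more. CPM is the count divided by the library's total and rescaled with TMM factors, which correct for library composition. Itgax, which encodes CD11c, had the lowest p of the 10. It read 359 and 407 CPM in Il33flx and 646.5 and 517 CPM in Ctrl (adjusted p = 0.995, edgeR). The 6 type 1 DC markers summed to 5010 and 5440 CPM in Il33flx and 6290 and 5750 CPM in Ctrl. The 6 type 2 DC markers summed to 487 and 470 CPM in Il33flx and 458 and 425 CPM in Ctrl. Il33 itself had 4 and 0 counts in the Il33flx libraries and 4 and 8 counts in the Ctrl libraries. The ratio of Il33flx to Ctrl was 0.378 (exact binomial counting interval 0.089 to 1.25). With so few counts the interval ran from a large loss to no loss, so the targeted gene does not check the labels. Ctrl 1 stood apart from the other libraries: on the first principal component, 65.2% of the variance of log2(CPM + 1), it lay at 42.2, against -16.2 to -10.8 for the others. The fold changes of the 10 genes are shown with and without it, as are the medians of most gene lists. Those of other named genes are given with all 4 libraries only.

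No difference between Il33flx and Ctrl passed the test for any of the 10 genes. With edgeR's quasi-likelihood test, 0 of the 10 passed an adjusted p of 0.05 (adjusted p = 0.995 to 1), against 0.00667% of all genes tested, which is 1 gene. At an unadjusted p under 0.05 stood 0 of the 10, against 3.26% of all genes, and DESeq2 and limma-voom also called 0 of them. The log2 fold changes of Il33flx over Ctrl ran from -0.31 for Rela to 0.27 for Rel, with a median of -0.08 over the 10 genes and 0.01 over all genes tested. The groups did not overlap for 3 of the 10 genes, against 30.3% of all genes tested. Of these, 2 were lower in Il33flx and 1 was higher, against 14.9% and 15.4% of all genes, so the counts lie near the background. The 95% intervals of the fold changes spanned -0.95 to 0.90 over all 10 genes, so a 2-fold change in either direction, which is 1 on this scale, lay outside the interval of each.

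**Figure D1:**
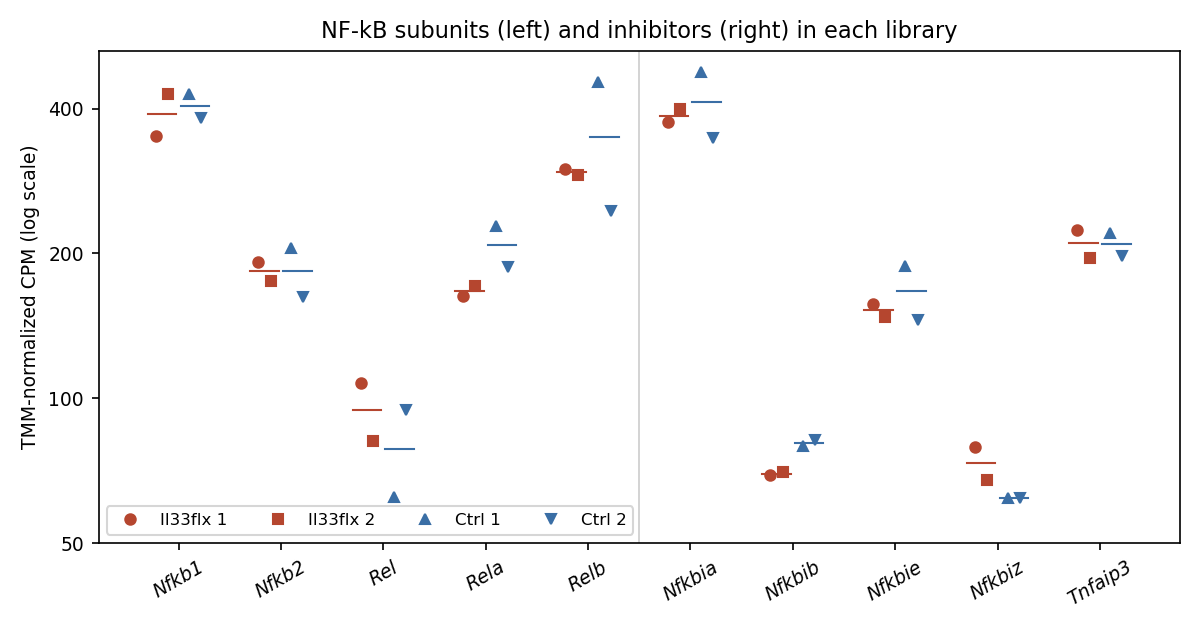
TMM-normalized CPM (log axis) of the 5 subunit and 5 inhibitor genes in the 2 Il33flx libraries (red circle and square) and the 2 Ctrl libraries (blue triangles), with bars at the group means. Ctrl 1 lies well above the other libraries for Relb, at 454 CPM, and below them for Rel, at 62.3 CPM, while the Il33flx and Ctrl libraries separate only for Rela, Nfkbib and Nfkbiz.

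Among the subunits, Rela (GRCm38 chromosome 19, 5637483 to 5648130, plus strand), the transactivating partner of the classical dimer, had the lowest p. It read 163 and 171 CPM in the Il33flx libraries, against 228 and 187 CPM in the Ctrl libraries. Both Il33flx libraries lay below both Ctrl libraries. Its log2 fold change of -0.31 ± 0.18 SE had an interval from -0.75 up to 0.13 (edgeR, unadjusted p = 0.134 and adjusted p = 0.995). Without Ctrl 1 it was -0.15 ± 0.16 SE (adjusted p = 1).

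Relb (chromosome 7, 19606217 to 19629438, minus strand) encodes the subunit of the slower route and is needed for the development of some DCs. Its reads came to 299.6 and 292 CPM in the Il33flx libraries, and to 454 and 245 CPM in the Ctrl libraries. The Il33flx libraries lay between the Ctrl libraries, which differed from each other by 0.89 on the log2 scale, the widest gap between Ctrl libraries among the 10 genes. The log2 fold change was -0.24 ± 0.29 SE (interval -0.95 to 0.47). It was 0.28 ± 0.15 SE without Ctrl 1 (unadjusted p = 0.0894, adjusted p = 0.982, edgeR), and it was -0.63 without Ctrl 2 (unadjusted p = 0.00551, adjusted p = 0.126), so its sign differed with the Ctrl library left out.

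Rel (chromosome 11, 23736847 to 23770970, minus strand) encodes c-Rel, a subunit prominent in lymphocytes and in activated DCs. It had 108 and 81.7 CPM in the Il33flx libraries, against 62.3 and 94.8 CPM in the Ctrl libraries. Ctrl 1 was the lowest library, where Relb was highest, and Ctrl 2 lay between the Il33flx libraries. The log2 fold change of 0.27 ± 0.26 SE (interval -0.36 to 0.90) was 0.01 ± 0.19 SE without Ctrl 1 and 0.60 without Ctrl 2 (adjusted p = 0.244, edgeR).

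Nfkb1 (chromosome 3, 135584655 to 135691547, minus strand) and Nfkb2 (chromosome 19, 46304320 to 46312385, plus strand) encode the precursors that are processed into the DNA-binding subunits without a transactivation domain. Nfkb1 read 350.2 and 429 CPM in Il33flx and 429 and 382 CPM in Ctrl. Nfkb2 read 192 and 175 CPM in Il33flx and 205 and 162 CPM in Ctrl. For both genes the groups overlapped, and each group's mean lay within the range of the other group. The log2 fold change was -0.06 ± 0.19 SE for Nfkb1 and 0.00 ± 0.19 SE for Nfkb2. Exons of Nfkb2 share 299 bases with Psd on the other strand. Psd had 308 to 377 counts per library, against 12219 to 15754 counts for Nfkb2. They also share 531 bases with AC114539.1, a noncoding gene on the other strand for which no counts were matched. Without a stated strand setting, reads of those stretches cannot be assigned.

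Nfkbia (chromosome 12, 55489410 to 55492647, minus strand) encodes IkB-alpha, the inhibitor that is degraded and resynthesised quickly in the classical response. It averaged 387 ± 16.4 CPM in Il33flx and 412 ± 91.2 CPM in Ctrl (SD, n = 2 each). The libraries read 375 and 398 CPM in Il33flx, against 476 and 347 CPM in Ctrl. The Ctrl libraries enclosed the Il33flx libraries. Its log2 fold change was -0.09 ± 0.21 SE, and 0.16 ± 0.15 SE without Ctrl 1. Nfkbie (chromosome 17, 45555703 to 45563169, plus strand), which encodes IkB-epsilon, had 157 and 148 CPM in Il33flx and 189 and 146 CPM in Ctrl, the same placement of the libraries as Nfkbia (log2 fold change -0.13 ± 0.20 SE, and 0.08 ± 0.16 SE without Ctrl 1).

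Nfkbib (chromosome 7, 28758251 to 28767512, minus strand), which encodes IkB-beta, was 1 of the genes whose groups did not overlap. It read 69.2 and 70.2 CPM in the Il33flx libraries, against 79.6 and 81.9 CPM in the Ctrl libraries. Libraries of the same group differed by at most 0.04 on the log2 scale, and the log2 fold change of -0.21 ± 0.17 SE (interval -0.63 to 0.20) was -0.23 ± 0.17 SE without Ctrl 1. It nevertheless did not pass the test (unadjusted p = 0.261, adjusted p = 0.995, edgeR), in which a gene's spread is drawn toward that of genes of like abundance. Exons of Nfkbib share 42 bases with Sirt2 on the other strand, which had 4714 to 6573 counts per library. They also share 314 bases with Ccer2 on the other strand, which had 0 to 5 counts per library.

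Nfkbiz (chromosome 16, 55811375 to 55838899, minus strand) encodes IkB-zeta, a nuclear protein that is induced by IL-1 family and Toll-like receptor signals and is required for part of the secondary response genes. It had 79.1 and 67.7 CPM in the Il33flx libraries, against 62.2 and 62.0 CPM in the Ctrl libraries. Both Il33flx libraries lay above both Ctrl libraries, which differed by 0.003 on the log2 scale. The log2 fold change was 0.24 ± 0.19 SE (interval -0.20 to 0.69, unadjusted p = 0.236, adjusted p = 0.995, edgeR), and it was 0.25 ± 0.18 SE without Ctrl 1. Tnfaip3 (chromosome 10, 19000910 to 19015657, minus strand) encodes a ubiquitin-editing enzyme that ends signalling upstream of IKK. It read 224 and 196 CPM in Il33flx and 220.0 and 198 CPM in Ctrl, with a log2 fold change of 0.01 ± 0.18 SE.

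All 10 genes were listed in the authors' deposited table of DESeq2 results with an adjusted p of 1, while it called 0.34% of its 15001 genes at an adjusted p below 0.05. Its log2 fold changes ran from -0.34 for Rela (unadjusted p = 0.16, authors' deposited table) to 0.25 for Rel (0.425).

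**Figure D2:**
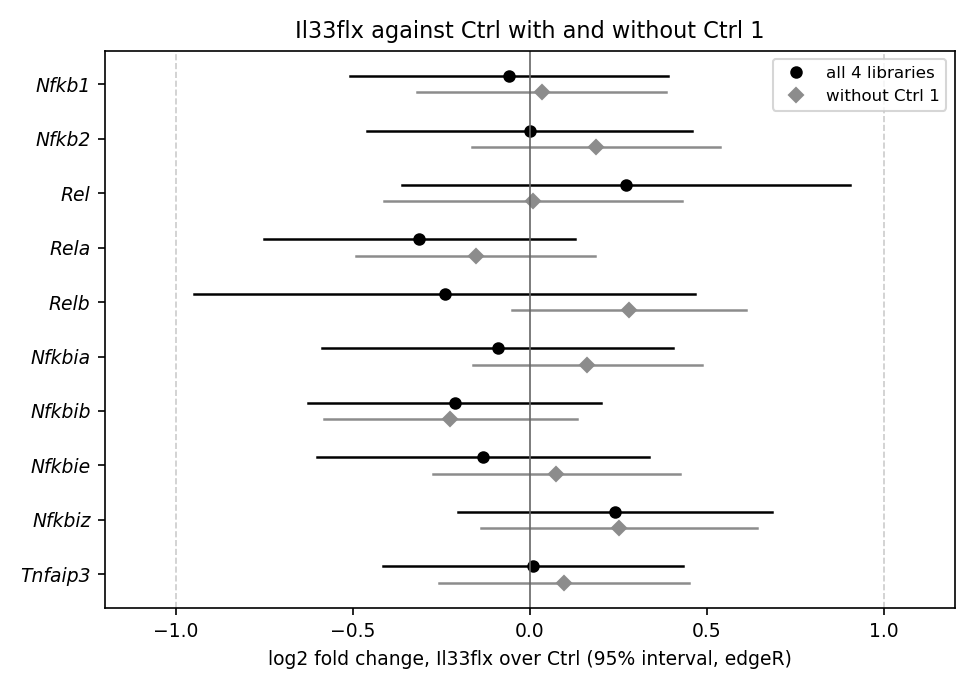
Log2 fold change of Il33flx over Ctrl with its 95% interval (edgeR) for each gene, with all 4 libraries (black circles) and without Ctrl 1 (grey diamonds); dashed lines mark a 2-fold change. Every interval includes 0 and stays inside the dashed lines, and Relb moves from -0.24 to 0.28 when Ctrl 1 is left out.

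For most of these genes the Ctrl libraries differed more from each other than the genotypes did. The gap between Ctrl 1 and Ctrl 2 was larger than the fold change of Il33flx over Ctrl for all of the genes except Rela, Nfkbib and Nfkbiz. A gap between single libraries varies more than a difference between group means, and the share of all genes with such a gap was not counted. Over the 10 genes the median absolute gap was 0.11 on the log2 scale between the Il33flx libraries and 0.31 between the Ctrl libraries, and over the genes tested it was 0.23 and 0.38. Ctrl 1 had the highest level of the 4 libraries for 6 of the 10 genes (Nfkb2, Rela, Relb, Nfkbia, Nfkbie and, by less than 1 CPM, Nfkb1), against 34.2% of all genes tested. Without Ctrl 1, 8 of the 10 log2 fold changes were above 0, against 3 of 10 with all libraries, their median was 0.09, against -0.08, and their intervals spanned -0.58 to 0.64. Even so, 0 of the 10 were called by edgeR without Ctrl 1, and 0 had an unadjusted p under 0.05.

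Genes of mature, migratory DCs had their highest summed level in Ctrl 1, as Relb, Rela and Nfkbia did, while Rel was lowest there. The 16 listed markers of this state, of which 2 (Birc3 and Traf1) are also NF-kB pathway genes, summed to 1960 and 1750 CPM in the Il33flx libraries, against 3090 and 1870 CPM in the Ctrl libraries, with none at 0. Ctrl 1 was the highest library and Il33flx 2 the lowest. Ccr7, the receptor that guides mature DCs to lymph nodes, read 475 and 415 CPM in Il33flx and 999 and 489 CPM in Ctrl. Fscn1, an actin-bundling gene of mature DCs, read 96.7 and 78.1 CPM in Il33flx and 227 and 86.2 CPM in Ctrl. Not all of the markers were high in Ctrl 1. Samsn1 read 48.6 and 45.2 CPM in Il33flx and 31.1 and 47.7 CPM in Ctrl. Tmem123 read 354.3 and 274.4 CPM in Il33flx and 273.8 and 355.1 CPM in Ctrl. For both, Ctrl 1 was the lowest library. Of the 16 markers 15 had a negative log2 fold change (median -0.29), 0 were called, and without Ctrl 1 the median was 0.08. The part of mature cells in the levels of the NF-kB genes was not tested, and in bulk libraries a changed number of cells and a changed amount of RNA per cell cannot be told apart.

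Markers of other cell types were read in all libraries, except 1 erythroid marker. The 8 T cell and EL4 markers summed to 75.6 and 65.5 CPM in Il33flx and 125 and 80.7 CPM in Ctrl, with Ctrl 1 again the highest. The 8 B cell markers summed to 194 and 165 CPM in Il33flx and 160.0 and 136 CPM in Ctrl, and the 8 neutrophil markers to 545 and 379 CPM in Il33flx and 295 and 266 CPM in Ctrl. The B cell and neutrophil sums of both Il33flx libraries lay above those of the Ctrl libraries, as Nfkbiz did. The 8 macrophage markers summed to 172 and 138 CPM in Il33flx and 175 and 136 CPM in Ctrl. The 5 plasmacytoid DC markers summed to 242 and 167 CPM in Il33flx and 191 and 194 CPM in Ctrl. The 6 NK markers summed to 31.1 and 34.5 CPM in Il33flx and 15.3 and 32.2 CPM in Ctrl. The 7 erythroid markers summed to 33.5 and 14.3 CPM in Il33flx and 6.67 and 6.17 CPM in Ctrl, again higher in both Il33flx libraries. Of all these markers only the erythroid gene Slc4a1 was at 0, in Ctrl 1. The part of these cells in the levels of the NF-kB genes was not tested.

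**Figure D3:**
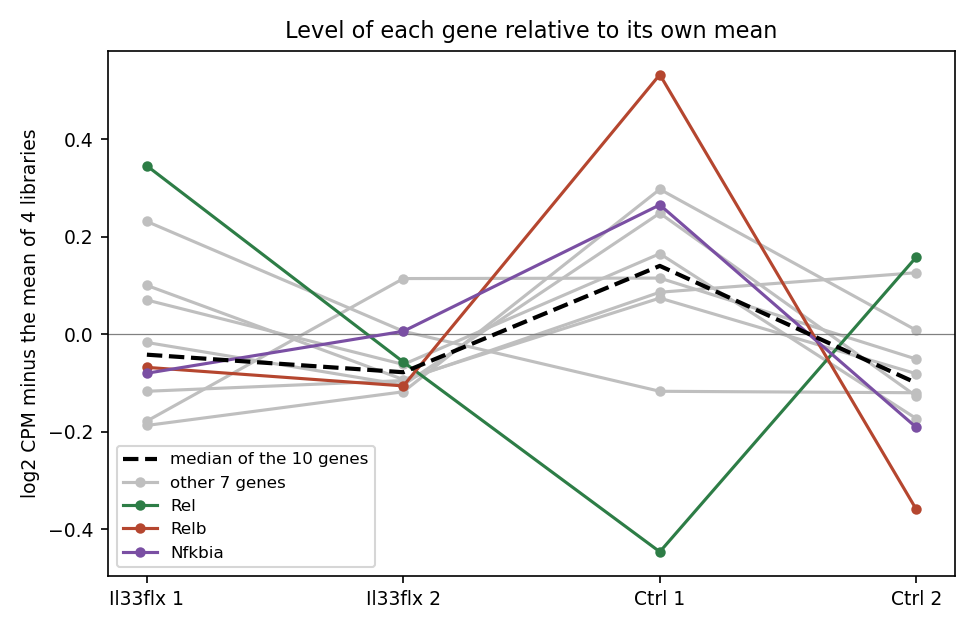
Log2 CPM of each of the 10 genes in each library minus the gene's own mean over the 4 libraries; lines join the values of 1 gene and mark no order, and the dashed line is the median of the 10 genes. In Ctrl 1 Relb is at 0.53 and Rel at -0.45, the widest spread of the 10 genes in any library, and the median there is 0.14.

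The ratio of Rel to Relb counts, which does not depend on how libraries are scaled, was 0.360 and 0.280 in the Il33flx libraries, against 0.137 and 0.387 in the Ctrl libraries. Ctrl 1 had the lowest ratio and Ctrl 2 the highest. Nfkbia to Rela, an inhibitor relative to a subunit that it binds, gave 2.30 and 2.32 in Il33flx and 2.08 and 1.86 in Ctrl. Here the Il33flx libraries lay above both Ctrl libraries, the only ratio computed for which the groups did not overlap. The groups overlapped for Rel to Rela, Relb to Nfkb2, Nfkbiz to Nfkbia, Tnfaip3 to Nfkbia and Nfkbia to Relb. Among single genes tested, 30.3% had groups without overlap. Nfkb1 to Nfkb2 was 1.82 and 2.45 in Il33flx and 2.09 and 2.35 in Ctrl, with the Ctrl libraries inside the range of the Il33flx libraries. These ratios are a description, with no test: with 2 libraries against 2, an exact permutation test cannot go below a two-sided p of 0.333, and no other test of them was run.

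Levels were compared between genes per length, as TPM, the counts per base of summed exon length scaled to a fixed total per library. Nfkbia had by far the most RNA, with 781 ± 8.02 TPM in Il33flx and 785 ± 133 TPM in Ctrl, and its lowest library was above the highest library of every other member. Relb followed with 248 ± 12.6 TPM in Il33flx and 275 ± 103 TPM in Ctrl, then Rela with 177 ± 0.26 TPM and 208 ± 18.3 TPM, and Nfkbie with 163 ± 12.2 TPM and 169 ± 21.9 TPM. The ranges over libraries overlapped between Relb and Rela and between Rela and Nfkbie. Below these, Nfkb2 (114 to 139.5 TPM over the 4 libraries), Nfkbib (103 to 121 TPM), Nfkb1 (96.6 to 113 TPM) and Tnfaip3 (86.2 to 103 TPM) each overlapped with the next. Nfkbiz (36.8 to 52.4 TPM) and Rel (24.8 to 48.0 TPM) were the lowest and also overlapped each other, and neither reached the lowest library of Tnfaip3. The place of Nfkb1 depended on the length used: it ranked 7 of 10 with its exon length of 12061 bases and 3 of 10 with its longest coding transcript of 4117 bases. As CPM, all 10 genes were among the more abundant ones, above 80.2% to 97.7% of the genes tested.

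Of the summed TPM of the 5 subunits, Relb held the largest share in each library, at 35.8% and 34.8% in Il33flx and 41.7% and 30.9% in Ctrl. Rela held 24.7% and 25.9% in Il33flx and 26.6% and 29.9% in Ctrl. Both Il33flx shares of Rela lay below both Ctrl shares. Rel held 6.69% and 5.07% in Il33flx, against 2.98% and 6.23% in Ctrl, with Ctrl 1 the lowest. With longest coding transcripts in place of exon lengths, Relb still led, at 33.8% to 45.1%, and Nfkb1, at 22.9% to 29.3%, exceeded Rela in each library.

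**Figure D4:**
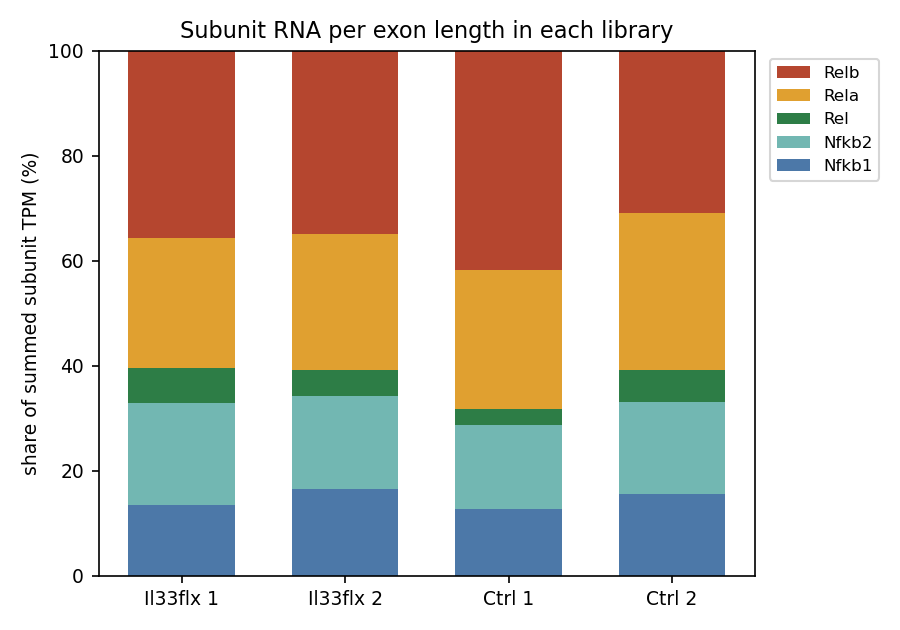
Share of the summed TPM of the 5 NF-kB subunit genes held by each, in percent, for the 2 Il33flx libraries (left) and the 2 Ctrl libraries (right). Relb is the largest block in each library, from 30.9% in Ctrl 2 to 41.7% in Ctrl 1, and Rel the smallest, from 2.98% to 6.69%.

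Because genes of NF-kB inhibitors and subunits are known NF-kB targets, their promoters were searched for the kappaB consensus, the DNA motif of 10 letters that the dimers bind, on both strands of the 250 bases before each RefSeq start site (GRCm38.p6). RefSeq windows were matched for 7 of the 10 genes, and 5 of the 7 held a match (Nfkb2, Rel, Nfkbia, Nfkbie and Tnfaip3), whereas those of Rela and Nfkbib held none. Of all 27025 genes with a window, 8.23% held a match. Matches on opposite strands or shifted by 1 base can overlap, as in Rel, where a second match starts 1 base nearer to the start site. The stretches below show 1 match in capitals for each of 4 genes, chosen because the stretch lies in no annotated exon, each 5′ to 3′ on the strand of its gene. The Tnfaip3 stretch lies within the annotated span of Tnfaip3, while the other stretches lie outside the spans of their genes. All of the stretches carry the letters of the motif and are no measurement of binding.
Rel (chr11:23771032-23771081, minus strand): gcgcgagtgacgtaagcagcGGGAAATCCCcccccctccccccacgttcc
Nfkbia (chr12:55492648-55492696, minus strand): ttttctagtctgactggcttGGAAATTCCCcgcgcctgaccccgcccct
Nfkbie (chr17:45555574-45555623, plus strand): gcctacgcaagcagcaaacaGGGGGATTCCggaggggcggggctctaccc
Tnfaip3 (chr10:19015411-19015442, minus strand): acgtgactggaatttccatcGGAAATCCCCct

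The first base of the capitals stands 92 bases before the start site in Rel, 29 in Nfkbia, 106 in Nfkbie and 12 in Tnfaip3. Genes with a match did not share 1 pattern over the libraries. Relative to their own means, Nfkbia was at 0.27 and Nfkbie at 0.25 on the log2 scale in Ctrl 1, Tnfaip3 was at 0.07 there, and Rel was at -0.45. Rela, with no match in its window, was at 0.30 in Ctrl 1.

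The genes whose 4 library values lay nearest to the median profile of the 10 genes were Samhd1, Uckl1, Rara, Polr3e and Naa60, at root mean square distances of 0.0208 to 0.0238 on the log2 scale. Of the 10 genes themselves, Nfkbie was nearest to that profile at 0.0585, and 431 of 9103 other protein-coding genes of at least 5 CPM were nearer than it. With 4 libraries such likeness is common and says nothing particular about these genes.

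Around the 10 genes, 85 other genes of the pathway were listed by role and 83 were tested; Ankrd42 and Il23a had too few counts. None was called by edgeR (adjusted p below 0.05), 1 had an unadjusted p under 0.05, and their median log2 fold change was -0.02 with all libraries and 0.02 without Ctrl 1. The groups did not overlap for 21 of the 83, of which 8 were higher in Il33flx and 13 lower, against 15.4% and 14.9% of all genes tested.

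The gene under that unadjusted p was Il1b, which encodes IL-1 beta, a cytokine that both activates NF-kB and is made in response to it. It read 488 and 649 CPM in the Il33flx libraries, against 328 and 442 CPM in the Ctrl libraries. Both Il33flx libraries were the higher ones, and Ctrl 1 was the lowest. The log2 fold change was 0.56 ± 0.23 SE (interval 0.007 to 1.12, adjusted p = 0.995, edgeR). Among 16 receptors and ligands the median was -0.25, with 12 below 0. Tnfrsf1b, a receptor for TNF, had a log2 fold change of -0.42 ± 0.26 SE and read 368 CPM in Ctrl 1, the highest library. Tnfrsf11a, the receptor for RANK ligand, was at 27.7 and 26.7 CPM in Il33flx and 38.4 and 34.5 CPM in Ctrl (log2 fold change -0.42 ± 0.20 SE, adjusted p = 0.995). Without Ctrl 1 the median of the receptors and ligands was 0.04.

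Among the 11 kinases of the pathway the median was 0.10, with 8 above 0 and 0 called, and the median was -0.01 without Ctrl 1. Ikbkb, the IKK kinase of the classical route, was the steadiest of those named, at 197 and 201 CPM in Il33flx and 208 and 201 CPM in Ctrl (log2 fold change -0.04 ± 0.16 SE). Chuk, the IKK kinase that also serves the slower route, had 132 and 115 CPM in Il33flx and 62.3 and 123 CPM in Ctrl. Ctrl 1 was the lowest library for Chuk, as it was for Rel (log2 fold change 0.42 ± 0.32 SE). Map3k7, which encodes a kinase upstream of IKK, had a log2 fold change of -0.28 ± 0.24 SE, and its adaptor gene Tab2 one of 0.39 ± 0.24 SE.

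Adaptors and ubiquitin ligases had a median of -0.18, with 12 of 16 below 0, 0 called, and a median of -0.02 without Ctrl 1. Rbck1, a subunit of the linear ubiquitin ligase, read 344 and 366.5 CPM in Il33flx and 479 and 363 CPM in Ctrl. Sharpin, of the same complex, read 56.0 and 58.9 CPM in Il33flx and 77.6 and 60.7 CPM in Ctrl. Traf1, Traf5 and Birc3, which act below TNF family receptors, had log2 fold changes of -0.17, -0.34 and -0.29. Ctrl 1 was the highest library for Rbck1 and Sharpin.

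The 12 negative regulators outside the 10 genes had a median of 0.01 with all libraries and -0.02 without Ctrl 1, with 6 on each side of 0 in all libraries and 0 called. Otulin, a deubiquitinase specific for linear chains, had 44.4 and 67.2 CPM in Il33flx and 86.7 and 73.2 CPM in Ctrl. Both Il33flx libraries were below both Ctrl libraries, and the log2 fold change was -0.52 ± 0.25 SE (interval -1.12 to 0.08, adjusted p = 0.995, edgeR). Cyld, another deubiquitinase, had 0.26 ± 0.33 SE, the ubiquitin-binding adaptor gene Tax1bp1 0.30 ± 0.31 SE and the ligase gene Itch 0.21 ± 0.29 SE as log2 fold changes. Of the other IkB genes, Bcl3 stood at -0.01 ± 0.20 SE and Nfkbid at 0.20 ± 0.21 SE on the same scale.

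Reported NF-kB target genes did not move together. Of 26 tested, 14 had a positive log2 fold change and 12 a negative one, with a median of 0.05 (0.10 without Ctrl 1), and 0 were called. Icam1, an adhesion molecule for T cells, read 438 and 406 CPM in Il33flx and 652.5 and 453 CPM in Ctrl (log2 fold change -0.39 ± 0.22 SE). Cxcl10, a chemokine also driven by interferons, read 17.9 and 10.5 CPM in Il33flx and 8.27 and 9.59 CPM in Ctrl (0.67 ± 0.31 SE). Tnfaip2 had 107 and 102 CPM in Il33flx and 91.6 and 73.0 CPM in Ctrl (0.35 ± 0.19 SE), and Cd86, a costimulatory ligand, had 382 and 372 CPM in Il33flx and 252 and 458 CPM in Ctrl (0.09 ± 0.29 SE). Of those named, the groups did not overlap for Icam1, Cxcl10 and Tnfaip2, and Ctrl 1 was the lowest library for Cd86. Of all 26, 4 were higher and 2 lower without overlap, against 15.4% and 14.9% of all genes tested.

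**Figure D5:**
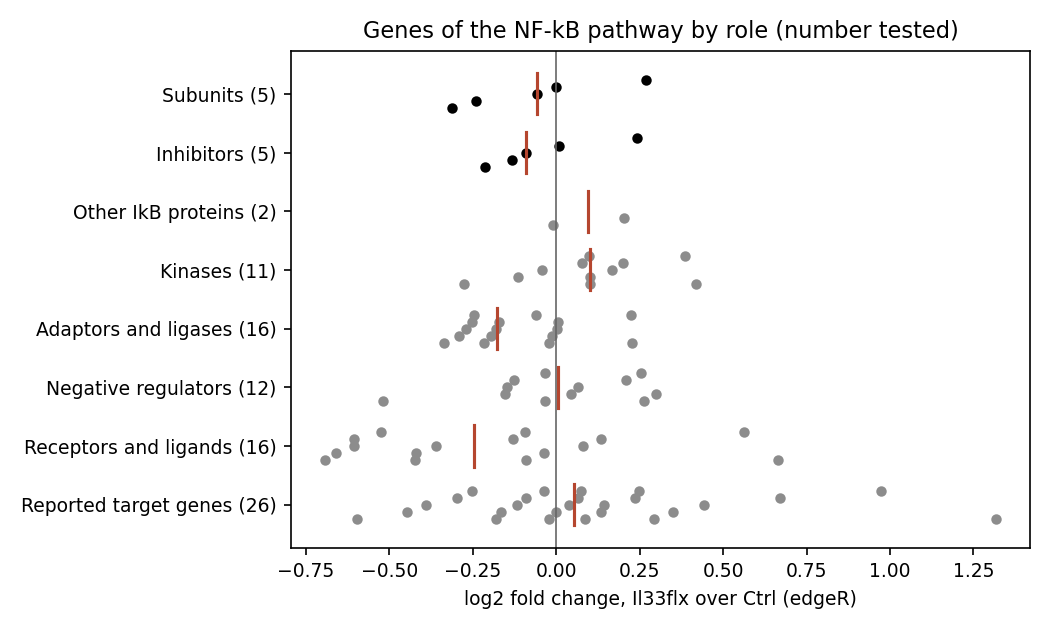
Log2 fold change of Il33flx over Ctrl (edgeR) for the 5 subunit and 5 inhibitor genes (black) and for other genes of the NF-kB pathway by role (grey), with the number tested in brackets and red bars at the medians. Medians lie between -0.25 for receptors and ligands and 0.10 for kinases and for other IkB genes, and the vertical scatter only separates points.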

How the data were processed

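RNA of 2 Il33flx and 2 Ctrl libraries was read as the deposited gene counts, raw whole numbers per gene. The submitters' processing notes name HTSeq, STAR, DESeq2, Trimmomatic 0.39 and build GRCm38. Further versions, the annotation release and the strand setting are not given in the sources used here. The 5 HTSeq summary rows stayed out (genes held 69.9% to 72.2% of all counted reads). The authors' deposited table gives signal (counts divided by 1 size factor per library, checked within 1e-06), log2 fold changes with standard errors, Wald scores and p-values. Lengths came from GENCODE M21.

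Il33flx was compared with Ctrl by edgeR 4.0.16 in R 4.3.3 (glmQLFTest, filterByExpr, TMM, no covariate), with Benjamini-Hochberg adjustment over 14995 genes. The standard error is the log2 fold change over the square root of F. Alternatives were DESeq2 1.42.0, limma-voom 3.58.1, other scalings and filters, the replicate block and leaving out each library. The test was checked on simulated counts. Counting intervals and limits cover counting error only.

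The members and lists were chosen with earlier results of these data known. Beside the 10 members, the text names from each list of other pathway genes the 3 tested genes with the smallest p and the 2 with the highest CPM. It also names 5 genes most like the members. Ccr7, Fscn1, Samsn1, Tmem123 and Itgax were chosen after their values were seen.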

Additional observations from a re-analysis of the deposited data

How the results depend on the processing

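None of the 10 genes was called under any of the 11 alternatives, while 2 of them, Rela and Relb, had an unadjusted p under 0.05 without Ctrl 2. Rel, Rela, Nfkbib and Nfkbiz kept the direction of their log2 fold change under all 11. For Rel, however, the value ran from 0.009 without Ctrl 1 to 0.598 without Ctrl 2. The median over the 10 genes, -0.08, was 0.01 with library size alone. That scaling also moved the median over all genes tested, from 0.014 to 0.091. With a library left out, the median over the 10 genes ran from -0.182 to 0.085, the highest being without Ctrl 1. Genes near 0 changed sign: Tnfaip3 was at -0.01 with DESeq2's size factors in edgeR, -0.002 with no filter and -0.017 with DESeq2; Nfkb1 was at 0.019 and Nfkb2 at 0.084 with library size alone; Nfkb2 was at 0.012 when 2 libraries had to reach 1 CPM and at 0.008 both with limma-voom and with the replicate block. With a library left out, the range was -0.182 to 0.078 for Nfkb1, -0.166 to 0.187 for Nfkb2, -0.093 to 0.132 for Tnfaip3, -0.625 to 0.28 for Relb, -0.307 to 0.162 for Nfkbia and -0.314 to 0.075 for Nfkbie; the cause was not tested. Over all genes, 1 was called higher and 0 lower; DESeq2 called 29 and 20, the replicate block 19 and 14, and library size alone, limma-voom and no filter called 0 higher. With a library left out, 0 to 19 genes were called higher and 0 to 19 lower. No label says what the replicate numbers share. Across 14794 genes, deviations of same-numbered libraries correlated at -0.02. With 1 difference per group, and Ctrl 1 apart from the rest, this cannot show whether the numbers mark a shared animal or day. With 2 libraries a group, these comparisons rest on the spread between them, and the part of depth was not tested.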
